A study of Mus musculus with 3 samples.

Results

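The nuclear genes for the respiratory chain and the ATP synthase were represented by 93 captured promoter fragments, out of 7176 viewpoints that had a position. A viewpoint is the DpnII restriction fragment around a promoter from which contacts are read. These 93 were chosen by name alone: a gene symbol in the viewpoint name began with Nduf, Sdh, Uqcr or Atp5, or with Cox and a digit. Names listed for more than 1 fragment were left out. By the prefix of the symbol, 41 belonged to complex I, 8 to complex II, 8 to complex III, 20 to complex IV and 16 to complex V, the ATP synthase. Roles were also assigned by symbol: subunits made up 70 of the 93 and assembly factors 22, and the last, Atp5s, is a coupling factor gene that carries the name. The data came from NuTi Capture-C, in which DNA fragments that lie near each other in intact nuclei are ligated and the ligation partners of chosen promoters are sequenced. All 3 libraries form 1 group of ter119+ erythroid cells from the spleen of F1 hybrid mice (C57BL/6 crossed with CBA/J), whose red cell production had been raised by phenylhydrazine in 3 doses given 12 h apart, with collection on day 5. ter119 is a surface marker of maturing red cells, and contact data hold no expression with which to check that identity. There was no control group, and nothing in the labels ties the libraries to separate animals, so the spread between them may be technical.

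Oxidative phosphorylation makes most of the ATP of a cell that has mitochondria. Complex I takes electrons from NADH and complex II takes them from succinate, both pass them through ubiquinone to complex III, and cytochrome c carries them on to complex IV, which reduces oxygen. Complexes I, III and IV pump protons across the inner mitochondrial membrane, and complex V uses the return flow of protons to make ATP. Most subunits are encoded in the nucleus, on many chromosomes, and a few core subunits in mitochondrial DNA. Erythroid precursors need mitochondria for heme synthesis and remove them as they mature into red cells. The factors NRF1, GABPA (an ETS family protein, also called NRF2) and YY1 are known activators of many of these nuclear promoters.

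Promoter sequences of 11 of these genes are shown because they carry, or in 1 case lack, the core words of those factors. The words searched on both strands were gcgcatgc (equal to gcatgcgc on the other strand) for NRF1, acttccgg for ETS/GABPA and aagatggc for YY1, and 2 NRF1 words can overlap by all but 2 letters. Each sequence covers the 100 bases before a RefSeq transcription start, on the strand of the gene, in the GRCm38.p6 build, with the word in capitals. Cox16 and Atp5c1 each have 2 such starts, and 1 is shown, which for Cox16 is the one with the word. An NRF1 word stood in Sdhb, the iron-sulfur subunit of complex II (chr4:140961171-140961270, plus strand), in the complex I subunits Ndufa6 (chr15:82354292-82354391, minus strand) and Ndufa11 (chr17:56717662-56717761, plus strand), and in Atp5g2 (chr15:102671048-102671147, minus strand) and Atp5k (chr5:108434400-108434499, minus strand) of the ATP synthase membrane part. An ETS/GABPA word stood in the complex III subunits Uqcr11 (chr10:80406822-80406921, minus strand) and Uqcrh (chr4:116075071-116075170, minus strand), in the complex IV assembly factor Cox16 (chr12:81485138-81485237, minus strand) and in Atp5h, the d subunit of the ATP synthase stalk (chr11:115419920-115420019, minus strand). The capitals that end Uqcr11 are the first part of an NRF1 word that runs past the start. Cox20, a complex IV assembly factor (chr1:178319053-178319152, plus strand), had the YY1 word. Atp5c1, the gamma subunit of the ATP synthase rotor (chr2:10080511-10080610, minus strand), had none of the words in this stretch and is shown because its viewpoint had the distal contact of lowest p among the members.
Sdhb: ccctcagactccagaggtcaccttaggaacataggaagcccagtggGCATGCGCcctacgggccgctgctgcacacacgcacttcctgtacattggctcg
Ndufa6: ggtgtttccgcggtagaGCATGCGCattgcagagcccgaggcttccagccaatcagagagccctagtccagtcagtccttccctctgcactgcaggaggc
Ndufa11: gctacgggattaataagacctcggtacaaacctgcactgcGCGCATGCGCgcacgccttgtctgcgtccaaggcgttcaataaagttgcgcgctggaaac
Atp5g2: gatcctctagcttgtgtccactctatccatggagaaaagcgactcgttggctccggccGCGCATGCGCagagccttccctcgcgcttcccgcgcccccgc
Atp5k: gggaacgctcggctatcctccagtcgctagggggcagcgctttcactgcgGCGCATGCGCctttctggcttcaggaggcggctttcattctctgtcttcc
Uqcr11: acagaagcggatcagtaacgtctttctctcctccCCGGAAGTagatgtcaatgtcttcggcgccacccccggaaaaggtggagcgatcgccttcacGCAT
Uqcrh: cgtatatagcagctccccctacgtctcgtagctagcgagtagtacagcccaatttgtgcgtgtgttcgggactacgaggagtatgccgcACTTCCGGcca
Cox16: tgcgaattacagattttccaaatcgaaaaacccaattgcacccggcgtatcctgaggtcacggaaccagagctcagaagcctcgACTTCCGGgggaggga
Atp5h: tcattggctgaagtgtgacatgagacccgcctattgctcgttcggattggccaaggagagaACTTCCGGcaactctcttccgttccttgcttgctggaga
Cox20: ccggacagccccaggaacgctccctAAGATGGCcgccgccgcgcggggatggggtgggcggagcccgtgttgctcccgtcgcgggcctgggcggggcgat
Atp5c1: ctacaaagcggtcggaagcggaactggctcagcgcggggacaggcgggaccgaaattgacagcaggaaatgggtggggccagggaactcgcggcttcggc

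Across 300-base windows, from 250 before to 50 after the start, 32 of 87 windows of 80 member genes (36.8%, exact 95% interval 26.7 to 47.8%) held at least 1 of the 3 words. The share was 21.9% of 8196 windows of all captured genes and 8.83% of all 32851 promoter windows in the same RefSeq table. NRF1 words were in 12 member windows (13.8%, against 6.69% of captured and 2.71% of all windows). YY1 words were in 13 (14.9%, against 5.88% and 2.75%), and ETS/GABPA words in 9 (10.3%, against 901 of the 8196 captured windows and 3.89% of all). All 13 YY1 words ran on the strand of the gene, and 10 of them began 11 to 39 bases after the start, as in Ndufc1, Ndufa3, Ndufa9, Ndufs4, Ndufs7, Ndufb8 and Atp5j2. NRF1 words had their first base at a median of 49 bases before the start. Strands and positions were read in member windows only, so whether they differ from those in other captured windows was not tested. Both an ETS/GABPA and another word were present in Uqcr11 and in Cox10, a heme A synthesis enzyme needed to build complex IV. With 7-letter cores, 50.6% of member windows and 35.1% of captured windows had at least 1 word, and ETS/GABPA cores were in 27 of 87 member windows and 1891 of 8196 captured windows (23.1%), the reverse of the order with 8 letters. Over whole viewpoint fragments the shares were 44.1% of 93 and 29.7% of 7176, and for ETS/GABPA words 16.1% and 13.3%. A match describes letters only, and no binding was measured.

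**Figure D1:**
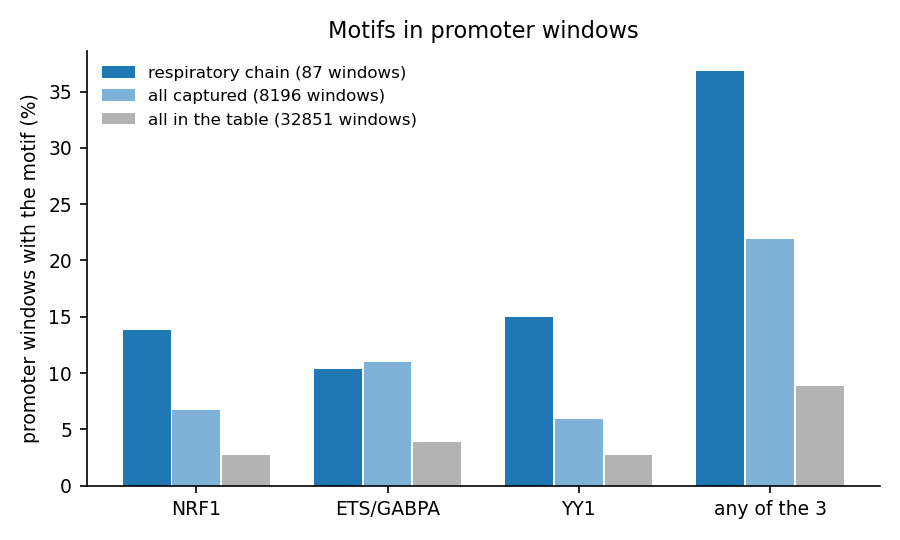
Share of 300-base promoter windows (percent, y axis) that hold the 8-letter word of NRF1, ETS/GABPA or YY1, or any of the 3 (x axis), for respiratory chain genes (87 windows), all captured genes (8196) and all promoters of the RefSeq table (32851). The respiratory chain bar is the highest for NRF1, YY1 and any word, and for ETS/GABPA, at 10.3%, it is just under that of captured genes, an order that turns with 7-letter cores.

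Depth set the precision of everything else. An event is 1 unique ligation between a viewpoint and another fragment of its chromosome (in cis). The median respiratory chain viewpoint had 7537 cis events summed over libraries, with quartiles of 3508 and 11536, and the median of all viewpoints was 6482. Libraries a, b and c gave medians of 1536, 2985 and 2929, and library a was the lowest for all 93. At least 1000 events were reached by 91 members, which is the minimum used for profiles below. The range ran from 190 for Ndufaf6 to 132420 for Cox7a2. The 6 deepest members, from 44949 to 132420 events, all lay on chromosome X or in a stretch of chromosome 9 from Timm8b_Sdhd to Dbr1. The stretch was marked off by its depth in these same data, so high depth inside it follows in part from that choice. Viewpoints on chromosome X or in the stretch (359) had a median of 61303 events and all others a median of 6114. A cause was not tested. These 6 members held 38.2% of all member events, and no other member exceeded 24030.

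**Figure D2:**
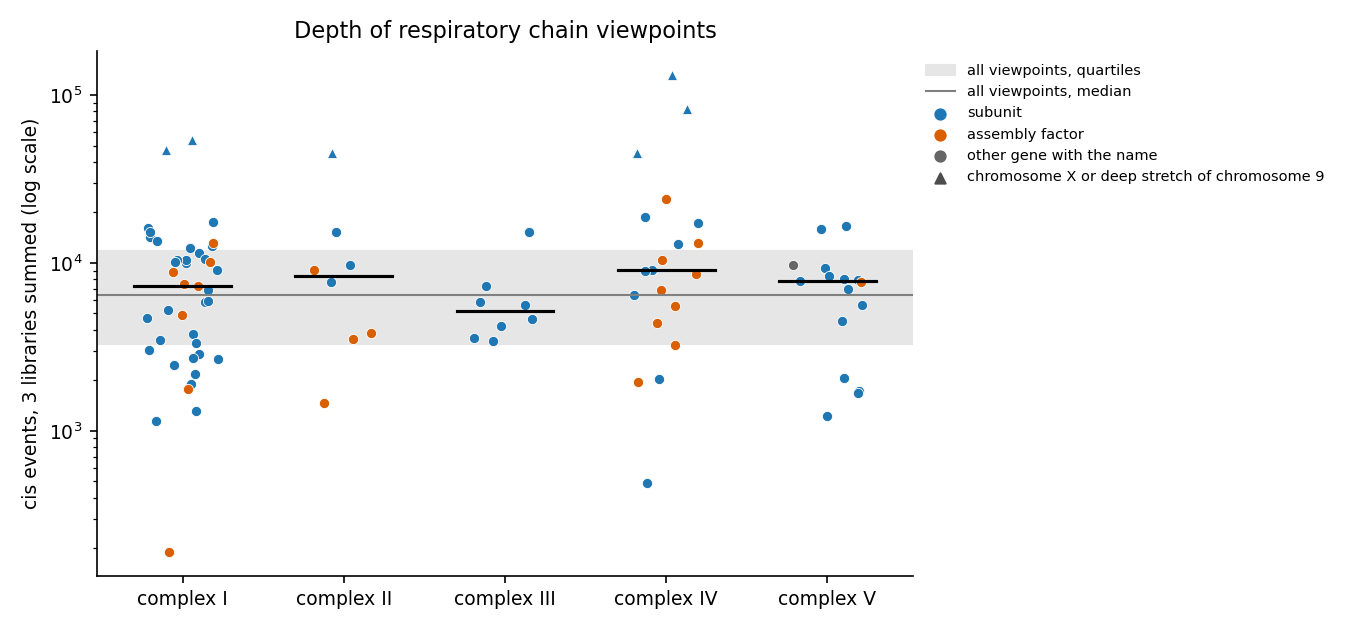
Cis events per viewpoint, summed over 3 libraries (y axis, log scale), for the members of each complex (x axis); each point is 1 viewpoint, black bars are medians, and the grey band and line are the quartiles and median of all viewpoints. The 6 triangles, on chromosome X or in the deep stretch of chromosome 9, lie at 44949 or above and every other member lies at 24030 or below.

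Complex I had the most viewpoints (33 subunits and 8 assembly factors), with a median of 7307 events. Rbm10_Ndufb11 on chromosome X was its deepest, with 13194 events in library a, 20431 in b and 20394 in c. Ndufb11 is a membrane arm subunit, and its fragment also holds the start of Rbm10, a splicing regulator. Ndufaf6, an assembly factor, was the shallowest with 54, 73 and 63, too few for a profile. The fragment of Ndufs1, the iron-sulfur subunit that receives electrons from the NADH-binding module, is shared with Eef1b2 (chr1:63222953-63224644 in mm9) and had 3246, 6486 and 6408 events. It had the lowest share of contacts within 1 Mb in complex I, 25.2% (exact 95% interval 24.5 to 25.8%). Ndufv1, which binds NADH (chr19:4011870-4012937), had 60.7% (59.7 to 61.6%). The highest of complex I was Ndufs7, a core iron-sulfur subunit, at 68.3% (67.0 to 69.6%). Local contact differed more between subunits of this 1 complex than between libraries, which gave 29.1%, 24.0% and 24.3% for Ndufs1 and 65.3%, 58.3% and 60.3% for Ndufv1.

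Complex II, the succinate dehydrogenase, was represented by all 4 of its subunits and 4 assembly factors, with a median of 8405 events. The fragment of Sdha, the flavoprotein subunit, also held the Ccdc127 start (chr13:74487132-74487928) and had 3286, 5939 and 6035 events in libraries a, b and c. Sdhb (chr4:140516873-140517792) had 1921, 3860 and 3940. Timm8b_Sdhd, which holds the start of the small membrane anchor subunit, was the deepest (11401, 16851 and 16697) and Sdhaf3, an assembly factor, the shallowest (221, 604 and 634). The share within 1 Mb varied less here, from 34.6% for Timm8b_Sdhd to 50.2% for Sdhaf4, with 38.7% (37.9 to 39.4%) for Sdha and 43.6% (42.6 to 44.6%) for Sdhb. Complex II is also the complex whose fragments were most often shared with another gene, 4 of 8.

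Complex III viewpoints, all 8 for subunits, were the shallowest group with a median of 5142 events. The deepest was Uqcrh, the hinge subunit that contacts cytochrome c1, with 3242, 5966 and 6166 events, and the shallowest was Uqcrq with 809, 1346 and 1279. Uqcrc1, a core subunit on the matrix side (chr9:108838601-108839879), had 41.3% of its events within 1 Mb (40.2 to 42.4%). Uqcrfs1, the Rieske iron-sulfur protein that moves electrons towards cytochrome c1 (chr13:30636876-30637405), had 39.1% (37.8 to 40.3%). Uqcr11 had the highest local share of all members, 69.8% (68.5 to 71.2%), at 74.7%, 66.8% and 69.1% in libraries a, b and c.

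Complex IV, cytochrome c oxidase, had 11 viewpoints counted as subunits by symbol, Cox7a2l among them, and 9 assembly factors. Its median depth was the highest, 9048 events. It held the deepest member and the members of lowest local share. Cox7a2, a small membrane subunit on chromosome 9, had 28950, 51775 and 51695 events, and Cox5b had 121, 197 and 170. Cox7a2 kept 20.8% of events within 1 Mb (20.6 to 21.0%) and Cox7c 23.8% (23.0 to 24.7%), the 2 lowest shares of the 91 members with a profile. Cox5a, a subunit on the matrix side (chr9:57368560-57369673), had 44.4% (44.0 to 44.9%) from 10578, 17370 and 17347 events. Cox6b2, known as the testis form of a subunit facing the intermembrane space, had 65.2% (63.1 to 67.3%), the highest of this complex.

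Complex V viewpoints had a median of 7774 events, from 1226 for Atp5j2 (299, 480 and 447) to 16488 for Atp5k (3668, 6498 and 6322), both genes of the membrane part. The catalytic head gave 1674 events for Atp5a1, the alpha subunit, and 15837 for Atp5b, the beta subunit with the catalytic sites, on chr10:127518796-127520574. Their local shares were 53.9% (51.5 to 56.3%) for Atp5a1 and 64.8% (64.1 to 65.6%) for Atp5b. Atp5d, the delta subunit of the rotor, was the second highest of all members with 68.7% (67.6 to 69.8%), at 70.7%, 66.7% and 69.2% in the libraries. Atp5j_Gabpa holds the starts of a stalk subunit and of Gabpa itself, and had the lowest share of the complex, 30.1% (29.0 to 31.1%). All these intervals cover counting error only.

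Over the 91 members with a profile, the median share of cis events within 1 Mb was 43.6%, beside 43.9% for all viewpoints. By library it was 47.1% in a, 42.6% in b and 42.5% in c (44.8 ± 3.18%, SD, n = 2). Libraries b and c were counted as 1 sample here and in every later mean, for the reason given with the library comparison. The split by range was also near that of all viewpoints: medians of 7.62% under 10 kb (all viewpoints 7.35%), 15.2% from 10 to 100 kb (15.9%), 20.5% from 100 kb to 1 Mb (19.6%), 21.5% from 1 to 10 Mb (21.4%) and 34.9% beyond 10 Mb (34.1%). Single members ranged from 20.8 to 69.8%. The highest local shares belonged to members in crowded regions: Uqcr11 had 54 other viewpoints within 1 Mb, Ndufs7 47 and Atp5d 44, and these 3 neighbours on chromosome 10 lie within 1 Mb of each other. Cox7a2 had 3 and Cox7c 2. The 21 members with fewer than 5 other viewpoints within 1 Mb had a median local share of 34.2% and reached at most 50.2%, whereas the 14 with more than 25 had a median of 59.1% and none under 41.3%. Across these members, Pearson's r for the 2 measures was 0.77 and Spearman's rho 0.75 (0.65 and 0.64 over 6718 viewpoints). Points share libraries, and nearby viewpoints share neighbours, so this is a description.

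**Figure D3:**
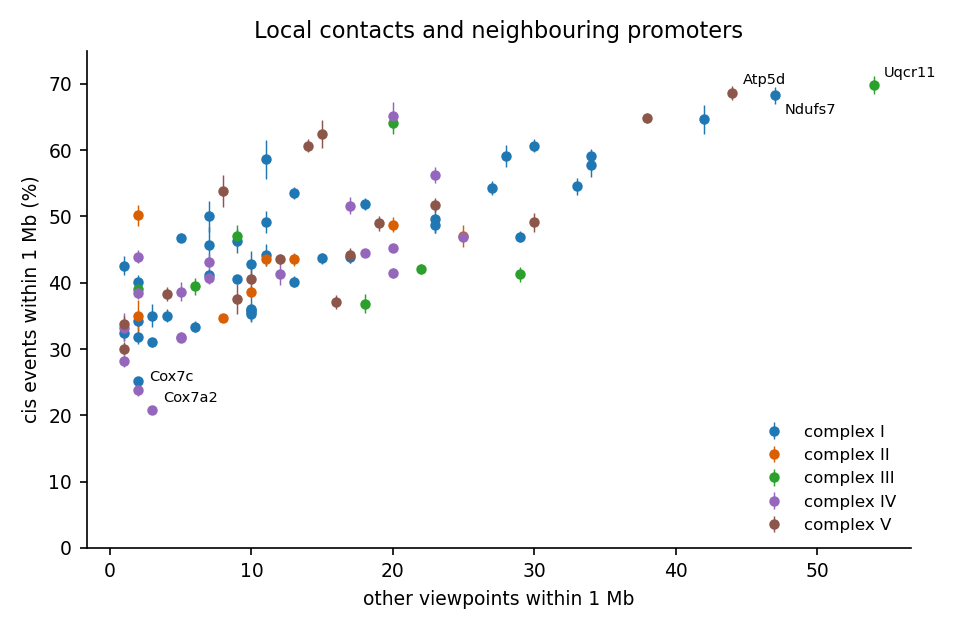
Share of cis events within 1 Mb of the viewpoint (percent, y axis) against the number of other viewpoints within 1 Mb (x axis) for 91 respiratory chain viewpoints coloured by complex, with exact 95% binomial intervals as bars. Uqcr11, Ndufs7 and Atp5d lie at the upper right with 68.3 to 69.8%, and Cox7a2 and Cox7c at the lower left with 20.8 and 23.8%.

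Contacts thinned out with distance at nearly the rate of other promoters. Between 10 kb and 1 Mb the log-log slope of events per fragment on distance was -0.86 for the members and -0.85 for all viewpoints. Libraries a, b and c gave -0.89, -0.85 and -0.85 for the members (-0.87 ± 0.030, SD, n = 2) and -0.88, -0.84 and -0.84 for all viewpoints, and the gap was not tested. Its direction depended on the weights: without the viewpoints of the deep regions the slopes were -0.86 for members and -0.87 for all viewpoints, and with each viewpoint scaled to the same total -0.88 and -0.91. By complex, the summed slope ran from -0.84 for complex III to -0.90 for complex II, whose libraries gave -0.94, -0.89 and -0.89.

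**Figure D4:**
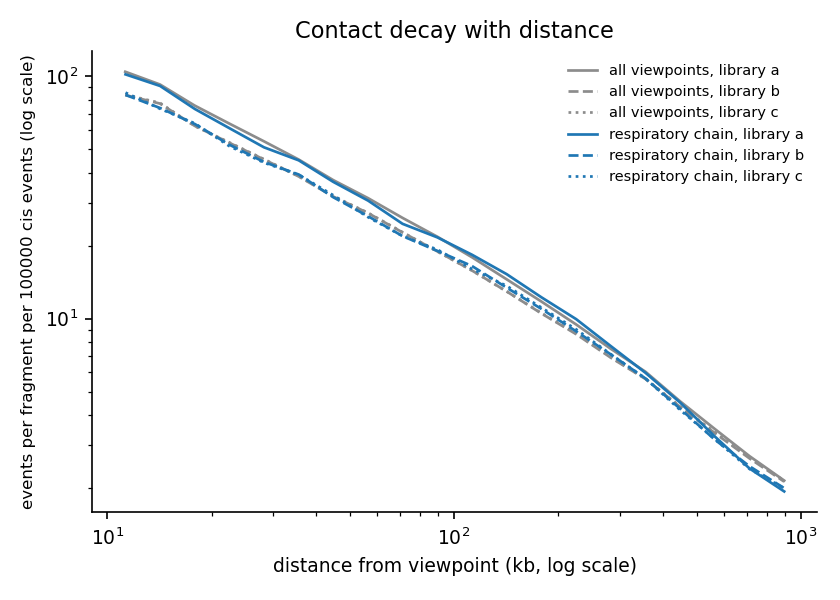
Events per DpnII fragment per 100000 cis events (y axis, log scale) by distance from the viewpoint in kb (x axis, log scale), for respiratory chain viewpoints and all viewpoints in libraries a, b and c. Curves of members and of all viewpoints nearly coincide, and library a lies above b and c at short range.

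Over 5 ranges of distance, libraries b and c gave member counts no further apart than sampling noise, and library a stood apart. In chi-square tests of the member counts in the 5 ranges of distance, b against c gave 355.7 on 364 degrees of freedom (p = 0.612), a against b 2327 and a against c 2196 on the same number. Over all viewpoints the chi-square of b against c did exceed that noise, at 1.04 per degree of freedom (p = 4.19e-06). It was 6.85 for a against b and 6.61 for a against c. Libraries b and c were merged on the members' result, and the study describes the 3C libraries as independent. Library a had the highest share within 1 Mb in 88 of 91 members. Counts in 5 kb windows from 2.5 kb to 1 Mb were correlated without division by expectation, so the shared fall with distance enters r2. The median r2 over members was 0.83 (0.84 for all viewpoints), with 0.82 for a with b, 0.83 for a with c and 0.86 for b with c. It moved with depth (Spearman's rho of r2 with events 0.87, n = 91), from 0.43 for Sdhaf3 to 0.98 for Cox7a2. On single fragments the median was 0.34. Library a contributed a median of 22.5% of a member's events, and least for Cox18 (8.83%), a complex IV assembly factor. This share went with base composition (Pearson's r with GC content 0.49) and fragment length (r -0.45, both n = 91), as over all viewpoints (0.47 and -0.47).

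Contacts from 2.5 to 100 kb were split by side for the 58 members whose genes ran on 1 strand. Their median upstream share was 47.7% (47.5%, 47.8% and 47.5% in libraries a, b and c, 47.6 ± 0.12%, SD, n = 2), beside 48.9% over 5044 viewpoints. Library b stood apart from a and c here, so this SD, with b and c as 1 sample, understates the spread between libraries. The upstream side held more than 50% of events in 23 of 58 (39.7%), against 43.8% of all such viewpoints. The intervals of 18 members lay wholly above 50%, those of 28 wholly below, and 12 crossed it. These intervals cover counting error only, and the same counts were not made over all viewpoints. Fragments were not evenly split by side either: the upstream side held from 33.2 to 58.6% of them over these members. The share of events exceeded this share of fragments in 22 of 58 members and in 2109 of 5044 viewpoints. Cox18 had the highest share, 71.1% (66.0 to 75.9%), with 60.5%, 72.1% and 72.8% in the libraries. Ndufa4, named for complex I but now known as a complex IV subunit, followed with 62.1% (59.2 to 65.0%), at 61.0%, 60.5% and 64.2%. At the other end, Cox6a1 had 31.5% (29.3 to 33.9%), at 33.5%, 30.1% and 31.4%, and Ndufb6, a membrane arm subunit, 33.4% (31.3 to 35.5%), at 33.4%, 32.8% and 33.9%. The 3 libraries lay on the same side of 50% for each of these 4. By complex, medians ran from 44.6% for complex V to 54.3% for complex IV, where 9 of 14 members exceeded 50%.

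To find distal contacts above the decay, each fragment from 2.5 kb to 1 Mb was compared with the count expected from its distance and the viewpoint's depth, by a 1-sided negative binomial test with Benjamini-Hochberg adjustment across the pairs of every viewpoint. A contact was called at an adjusted p under 0.05 with a count above expectation in each library. Of 28839785 fragment pairs, 248 (0.00086%) were called, and 0 of the 390207 pairs of members. The dispersion, estimated by moments in each bin of distance, had a median of 0.972 and a maximum of 1419. Few counts can be called in a bin of so high a dispersion, so the 0 does not show that contacts are absent. The lowest adjusted p of a member was 0.122 in this negative binomial test, and 5.58% of member pairs had an unadjusted p under 0.05, against 5.54% of all. With the dispersion fitted by maximum likelihood 0 member pairs were called too, of 439 over all viewpoints (0.00152%), whereas a moment estimate trimmed of its top 0.1% of standardised counts gave 5 of 1182 (0.0041%, members Cox20, Kin_Atp5c1, Stxbp4_Cox11, Cox17 and Ndufv2, 1 each).

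Summed in 5 kb windows, 601 of 2660523 windows (0.0226%) were called, and 3 of 36117 for members (0.00831%). They belonged to 3 of 91 members (3.30%), against 407 of 6718 viewpoints (6.06%). Both shares lie below the background, and the difference was not tested. The members were Kin_Atp5c1, Cox20 and Cox18, a subunit and 2 assembly factors. All 3 windows held the start of a protein-coding gene, as did 37.1% of called windows of all viewpoints, and none held a fragment that shares a 30-base word with the viewpoint.

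The fragment Kin_Atp5c1 (chr2:10001793-10002493) had its called window at the start of Taf3, which encodes a subunit of the general transcription factor TFIID. It holds the starts of Atp5c1 and of Kin, a DNA- and RNA-binding protein gene. The window chr2:9970001-9975000 lay at -29.6 kb, where a minus sign means towards lower coordinates. It had 19, 28 and 21 events in libraries a, b and c against 10.8 expected in all, 6.29 times the expected count (adjusted p = 0.000347, negative binomial test). Each library was above 5 times its own expectation, at 6.41, 7.08 and 5.37. The reverse view agreed in direction: from the Taf3 viewpoint, the window with the Kin_Atp5c1 fragment (chr2:10000001-10005000, 32.4 kb away) had 15, 30 and 31 events against 16.9 expected, a ratio of 4.51 (adjusted p = 0.0320, negative binomial test). It was the only called window of 1188 that view a member's fragment from another viewpoint (0.0842%), where 152 of 93094 windows over all viewpoints were called (0.163%). The 2 views count different ligations, each viewpoint with the fragments beside the other, since targeted fragments are not in the table.

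Cox20 (chr1:180247702-180249441), whose product chaperones the COX2 subunit, had its called window at the start of Hnrnpu, which encodes a nuclear RNA-binding protein. Events at the targeted Hnrnpu fragment are not counted, so the call rests on other fragments of the window. It was kept in 3 of 8 alternative settings. The window chr1:180265001-180270000, 18.9 kb away, had 16, 29 and 24 events against 16.1 expected, a ratio of 4.29 (adjusted p = 0.0105, negative binomial test), with 3.85, 4.77 and 4.09 by library. Seen from Hnrnpu, the window with Cox20 had 3, 11 and 4 events against 10.7 expected, a ratio of 1.68 that was not called, and library c was below its expectation.

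Cox18 (chr5:90652897-90654242), needed to insert the COX2 subunit into the membrane, contacted a window 144 kb away (chr5:90795001-90800000) that held the starts of Ankrd17, an ankyrin repeat protein gene, and of Gm9958. Its 3, 13 and 14 events stood against 3.72 expected, a ratio of 8.08 (adjusted p = 0.0181, negative binomial test), with 8.74, 7.49 and 8.50 by library. Beside it stand the low share of library a in Cox18, its upstream share, and the 5.41% of its events in range that lie on fragments sharing a 30-base word with the viewpoint. The called window itself held no fragment sharing such a word. The part of the library a share and of the upstream share in the result was not tested.

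**Figure D5:**
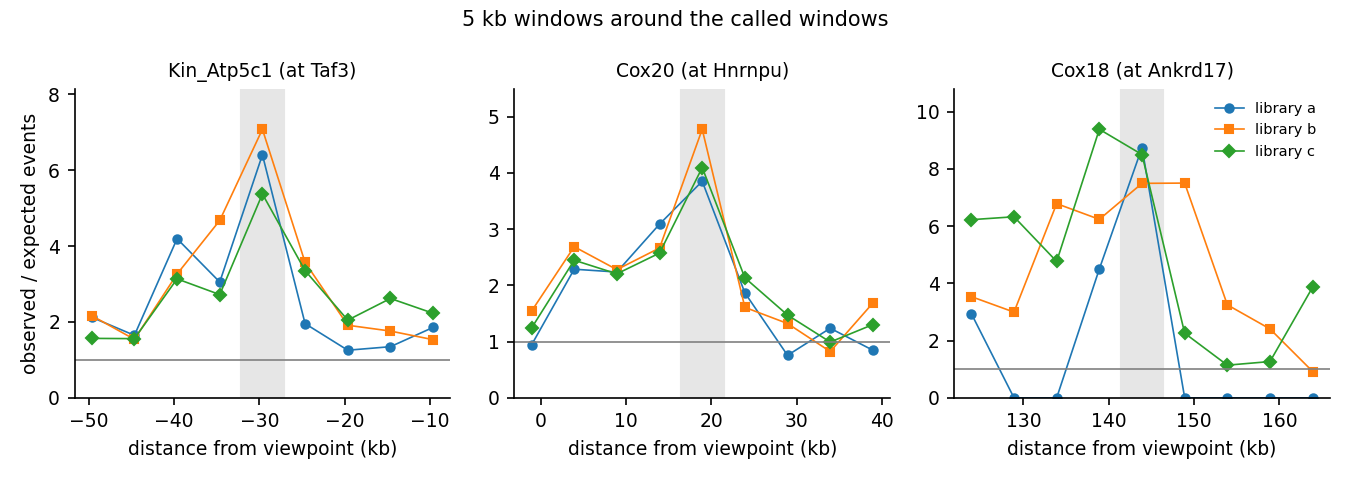
Observed over expected events (y axis) in 5 kb windows by distance from the viewpoint in kb (x axis) around the called window (grey) of Kin_Atp5c1, Cox20 and Cox18, in libraries a, b and c; the line at 1 is the expectation, and each panel has its own y scale. In the called windows the libraries lie at 5.37 to 7.08, 3.85 to 4.77 and 7.49 to 8.74, and over the summed libraries the windows next to them lie at 3.53 and 3.05, 2.74 and 1.87, and 7.49 and 4.50; library a of Cox18 is at 0 in several windows.

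The calls depended on the settings, and those of Cox20 and Cox18 also on single libraries. With expected counts weighted by fragment length, Kin_Atp5c1 had a ratio of 2.95 (adjusted p = 0.655, negative binomial test) and Cox20 a ratio of 2.31 (adjusted p = 0.984), and both calls were lost, while Cox18 kept its call. In all, 5 member windows were called with these weights, beside 0.0202% of all windows, and 1 at an adjusted p under 0.01, beside 0.0112%. The windows of Kin_Atp5c1 and Cox20 hold 5 and 6 fragments. Leaving out each library in turn, Kin_Atp5c1 stayed called, with adjusted p from 0.000388 to 0.00709 in this negative binomial test. Without library b, the adjusted p was 0.0702 for Cox20 and 0.0620 for Cox18, and without library c it was 0.122 for Cox18. With dispersion by moments, Cox18 had an adjusted p of 0.0964 in this test and lost its call, and in 10 kb windows Cox20 did at 0.0501. On a grid shifted by 2.5 kb, the window with the upper part of each called window gave 1.83 times the expected count for Cox20 (adjusted p = 1, negative binomial test) and 6.25 times for Cox18 (adjusted p = 0.240), while the one with its lower part, centred 16.4 kb and 141.4 kb away, was called for both. At the same threshold Kin_Atp5c1 lost its call under the length weights alone.

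Below the threshold, 7 further members are named by their lowest window p (windows with at least 10 events, chosen after their values were seen), and 5 of these windows held a coding start. Ndufaf4, a complex I assembly factor, had 6, 4 and 5 events at Mms22l, at -403 kb, a ratio of 10.8 (adjusted p = 0.0566, negative binomial test). Eef1b2_Ndufs1 had 31, 53 and 54 events at Ino80d, at -61.3 kb, a ratio of 4.57 (adjusted p = 0.0670, negative binomial test). Cox10 had 3, 4 and 5 events at Elac2, 900 kb away, a ratio of 12.9. Uqcrfs1 had 5, 8 and 12 at E2f3, at -560 kb, a ratio of 8.77, and Timm8b_Sdhd had 21, 32 and 22 at Sik2, 406 kb away, a ratio of 6.58. The other two windows, of Uqcrh at -340 kb and Sdhaf4 at -100 kb, held none, with ratios of 7.09 and 5.92. None of these passed in the main setting, and the Uqcrfs1 window was called with fragments weighted by length, as was an overlapping one, at -562.1 kb, on the shifted grid. The Eef1b2_Ndufs1 window was called at a minimum of 5000 cis events. From the partner's side the ratios were 10.2 for Mms22l, 4.68 for Elac2, 5.31 for E2f3 and 3.48 for Sik2, above expectation in each library and also not called. Among member windows with an unadjusted p under 0.001, a limit chosen after seeing the values, 19 of 65 (29.2%) held a coding start, as against 8.79% of all member windows. The same shares over all viewpoints were 28.2% and 8.28%, close to those of the members.

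Contacts between captured promoters could be read only beside them, because the deposited table has no events at targeted fragments. At fragments 1 or 2 places from another viewpoint 10 kb to 1 Mb away, members had 8314 events against 5702 expected. Divided by the same ratio 10 to 30 kb around those viewpoints, the local ratio was 1.22 (1.17, 1.23 and 1.23 in libraries a, b and c, 1.20 ± 0.044, SD, n = 2), and 1.27 for all viewpoints. Fragments 1 place away alone gave 0.97 for the members and 1.11 for all viewpoints, so whether the members' ratio lay above 1 depended on that choice. Beyond 1 Mb the local ratios were 1.51 from 1 to 10 Mb (1.51 ± 0.011, all viewpoints 1.39) and 1.59 beyond 10 Mb (1.60 ± 0.017, all viewpoints 1.46). Libraries a, b and c gave the members 1.52, 1.55 and 1.47 in the nearer range and 1.61, 1.55 and 1.62 in the farther. In both ranges b and c lay furthest apart, so these SDs, with b and c as 1 sample, understate the spread between libraries. Without the viewpoints of the deep regions they were 1.46 (all viewpoints 1.37) and 1.57 (all viewpoints 1.45). Of 52 members with at least 20 expected events, 42 had a local ratio over 1, and 23 of the 52 did with fragments 1 place away alone. These counts were not made over all viewpoints, whose pooled ratios, 1.27 and 1.11, were above those of the members. Among the 52 members, Ccdc127_Sdha had the highest, 2.10 (25, 48 and 51 events), then Fam126b_Ndufb3 with 1.93, and Atp5sl the lowest, 0.64 (3, 18 and 12 events). With 1 place alone these 3 were at 1.73, 1.57 and 0.54. Atp5sl, named for the ATP synthase, is known as a complex I assembly factor.

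Members lay on 19 chromosomes, with at most 8 on 1, and formed 216 pairs on the same chromosome, of which 9 were within 1 Mb. The 9 pairs had 116 events at their flanks and a local ratio of 1.27 (1.08, 1.45 and 1.23 by library, 1.21 ± 0.18, SD, n = 2), against 1.21 for members with viewpoints outside the group. With fragments 1 place away alone it was 0.97, so its side of 1 also depended on that choice. By library, the pairs lay below members with outside viewpoints in a, above in b and level in c. The ratio was 1.68 for 27 pairs at 1 to 10 Mb (45 events, 2.57, 1.62 and 1.24 by library) and 1.67 for 180 pairs beyond (92 events, 1.27, 1.66 and 1.89), where members with outside viewpoints had 1.51 and 1.59. Beyond 10 Mb it was 1.37, from 49 events, without the viewpoints of the deep regions. The pair of highest observed over expected count was Cutc_Cox15 with Ndufb8, 802 kb apart on chromosome 19, with 2, 2 and 3 events and a ratio of 4.69, beside 1.12 in their surroundings. Ndufb4 and Cox17 (692 kb apart) had 0, 1 and 2 events and a ratio of 2.54, beside 1.86. Ndufs8 and Ndufv1, which belong to complex I and lie 99.6 kb apart, had 6, 12 and 9 events and a ratio of 1.80, beside 1.03 around them. Ndufaf3 and Uqcrc1 had 2, 3 and 2 events and 1.66, beside 0.68. In the chromosome 10 cluster, Atp5d with Ndufs7 gave 1.47, Ndufs7 with Uqcr11 0.94 and Atp5d with Uqcr11 0.63, beside surroundings of 1.21, 0.96 and 1.19. In all, 7 of the 9 pairs were above expectation and 5 in every library, on counts too small to rank them. Without division by surroundings, any viewpoint with any other at 10 kb to 1 Mb had 1.51 times its expected count. Lying above expectation is thus not particular to these pairs, and the share over all viewpoint pairs was not computed.

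Reads from identical sequence can be placed at either position. Only 5 viewpoints, Ndufa8_Morn5, Cox18, Ndufc2, Uqcrc1 and Atp5g1, shared a 30-base word with fragments 2.5 kb to 1 Mb away. Those fragments held 278 events, 0.0687% of all member events in range, with the largest shares in Cox18 (5.41%) and Atp5g1 (5.08%), the latter a gene of the c ring of the ATP synthase. With 25-base words the order changed, to 11.3% for Atp5g1, 7.45% for Ndufa8_Morn5, 7.05% for Ndufc2 and 5.56% for Cox18. Of the 93 fragments, 29 (31.2%) also carried the name of another gene, and their contacts cannot be divided between the genes. The share was 17.7% over all viewpoints. A name with more than 1 gene has more chances to match the rule, so a higher share among members is built into the choice by name. An annotated start of a gene in the viewpoint name, the member or its partner, lay in 87 fragments (93.5%, all viewpoints 89.0%). For 6 members the annotation held no start under those names, and their fragments held another annotated start.

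Other genes of the pathway and its regulators were read in the same way. The list of 28 further respiratory viewpoints, with cytochrome c1 (Cyc1), cytochrome c (Cycs), copper chaperones and other assembly factors, had a median of 4249 events and 43.1% of them within 1 Mb. A window was called for 1 of 27, Ttc19_Zswim7 (3.70%, beside 6.06% of all viewpoints). Of 10 viewpoints for regulators of mitochondrial biogenesis, such as Nrf1, Tfam and Esrra, with Atp5j_Gabpa that is also 1 of the 93 members, 0 had a called window, and their median was 6009 events with 42.6% within 1 Mb. Nrf1 itself had 53.5% of 7834 events within 1 Mb, and Tfam, which packages mitochondrial DNA, 28.7% of 2523.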

How the data were processed

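The deposited signal values are reporters (unique ligation events) per 100000 cis reporters of a viewpoint in 1 library, made by the authors with CCseqBasic and CaptureCompare from reads aligned to mm9; the labels name Trim Galore and Bowtie without versions. Each column, which carries no library name, was divided by its smallest value above 0 per viewpoint, which gave whole events, to within 0.01, for 100.0% of values in every library. Cis depth was 18230099, 34428035 and 34233560 events in libraries a, b and c. No fold changes, scores or calls of the authors were used, and peaky was not run.

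Members and gene lists were chosen with earlier results of these data known. Named genes were members with a called window, the deepest and shallowest of each complex, the 5 member pairs of highest observed over expected count, 9 core subunits, and the 2 highest and 2 lowest upstream and local shares. Expected counts came from 50 distance bins times the viewpoint total, with negative binomial dispersion per bin by moments (fragments) or by maximum likelihood in 20 bands (5 kb windows), over viewpoints with at least 1000 events. The test treats ligation events of pooled libraries, so its p-values do not measure spread between animals. Medians carry no test. Libraries b and c entered each mean ± SD as 1 sample. Exact intervals are Clopper-Pearson at 95%. Scripts used Python 3.11.15, numpy 2.4.6, scipy 1.17.1, pandas 2.3.3 and samtools 1.23.1 with the NCBIM37 annotation. Alternatives changed members, libraries, window, dispersion, weights, minimum depth and threshold. The values of 1 pair of members are not reported here.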

Additional observations from a re-analysis of the deposited data

How the results depend on the processing

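Of 77 alternatives over 11 results, 50 stayed within the spread between samples, within the counting interval or within 1.5 times the count. Leaving out 1 library at a time gave a median depth of 4561 to 5884 events, a local share of 42.6 to 44.1%, a slope of -0.86 to -0.85, a median r2 of 0.82 to 0.86, an upstream share of 47.4 to 47.9%, 0 called fragments, 1 to 3 called windows (1 without library b), local ratios of 1.21 to 1.23 beside other viewpoints and 1.17 to 1.34 between members, and 0.0596 to 0.0733% of events at shared words. The lower depth follows from fewer libraries, and the other causes were not tested.

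Among settings that moved a value, the share within 100 kb was 22.9% (all viewpoints 23.5%), which is a narrower range by construction. Median r2 was 0.34 on single fragments and 0.91 in 10 kb windows. The upstream share was judged against its SD with b and c as 1 sample, which understates the spread between libraries. It was 47.3% without members on chromosome X or in the deep stretch of chromosome 9, 47.3% for subunits only, 46.1% up to 1 Mb and 48.1% up to 20 kb. Leaving the highest 0.1% of standardised counts out of the dispersion called 5 fragments in place of 0 (1182 in place of 248 over all viewpoints). Called windows numbered 1 for subunits only, 5 with fragments weighted by length (538 over all viewpoints, 601 in the main setting) and 1 at an adjusted p under 0.01 (298 over all viewpoints). Local ratios were 0.97 (with other viewpoints) and 0.97 (between members) 1 place away only, and 1.46 and 1.60 without surroundings. Shared words held 0.0993% of events without the deep members and 0.258% at 25 bases. The 7-letter cores were in 50.6% of windows.

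At a minimum of 5000 events 31 more members leave the test: of the 3 windows called, those of Cox20 and Cox18 belong to such members, and among the other members Kin_Atp5c1 and Eef1b2_Ndufs1 were called. How depth limits the calls was not tested. No paired analysis was possible because the libraries form 1 group, with no second group whose samples share their numbers.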
